A study of Mus musculus with 3 samples.

Results

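The mitochondrial respiratory chain is described here through 104 genes of the 27998 in the count tables, chosen by symbol alone: the 13 mRNAs encoded by mitochondrial DNA (mt-Nd, mt-Co, mt-Cytb and mt-Atp genes) and 91 nuclear genes with symbols starting with Nduf, Uqcr, Cox4 to Cox8 or Atp5, together with Sdha to Sdhd. Cox6a2 and pseudogene symbols were left out by the same rule, and Cyc1, the cytochrome c1 gene of complex III, is not matched by it. By complex, the nuclear genes comprised 36 of complex I, 4 of complex II, 8 of complex III, 19 of complex IV (with Ndufa4 and Ndufa4l2 counted here), 15 of complex V and 9 assembly or associated factors (Ndufaf1 to Ndufaf7, Atp5s and Atp5sl). Of all members, 100 had at least 1 unique molecular identifier (UMI, a tag that counts an mRNA molecule once), and Cox7b2, Cox8b, Cox8c and Ndufa4l2 had none in any library.

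The study profiled mouse bone marrow progenitors of the C57BL/6 background by 10x Chromium v2 single-cell RNA-seq, with 1 library per group. ALP, the all-lymphoid progenitor library, came from Tcf7EGFP/+ cells taken from the Lin- Kit+ 2B4+ a4b7- gate and, within it, from cells that were IL-7Ra+ and Flt3high. ILCpro_WT came from Tcf7EGFP/+ cells and ILCpro_KO from Tcf7EGFPnull/- cells, both from a Lin- Kit+ gate that was also 2B4+, a4b7+ and Tcf7+, so every group carries at least 1 altered Tcf7 allele, the controls included. The number of animals behind each library is not given in the sources used here, and no test between groups was run. Intervals below are exact 95% intervals that cover counting error only, and levels are given in CPM, the UMIs of a gene per 1000000 UMIs of its library.

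After a filter on cells, 810 ALP, 1829 ILCpro_WT and 716 ILCpro_KO cells remained, with 4115605, 6094683 and 4384061 UMIs. Depth per cell differed, with a median of 4544.5 UMIs in ALP, 2897 in ILCpro_WT and 5309 in ILCpro_KO. Ribosomal protein mRNA took 34.6%, 37.7% and 32.7% of UMIs, and a list of 17 immediate early and stress genes summed to 3694, 2751 and 3468 CPM, in the same order. Tcf7 mRNA was at 1.46 CPM in ALP, 362 in ILCpro_WT and 57.3 in ILCpro_KO. Whether the counted 3′ end of Tcf7 lies in the altered part of the gene is not given, so that value does not check the genotype. The 7 all-lymphoid progenitor markers summed to 2960 CPM in ALP against 448 and 719, and the 10 innate lymphoid progenitor markers to 2607 CPM in ILCpro_WT, 1051 in ILCpro_KO and 222 in ALP. All 14 neutrophil and monocyte markers were detected in ILCpro_KO, where they summed to 4782 CPM against 496 in ILCpro_WT. Summed markers of conventional dendritic cells (1617 against 752 CPM), mast cells and basophils (810 against 320) and erythroid cells and megakaryocytes (491 against 134) were also above ILCpro_WT there. The 11 natural killer cell markers went the other way, at 1674 CPM in ILCpro_WT against 706 in ILCpro_KO and 154 in ALP. No barcode was shared between ALP and ILCpro_KO, 4 were shared between ALP and ILCpro_WT and 1 between the ILCpro libraries.

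The respiratory chain passes electrons from NADH (complex I) and succinate (complex II) through ubiquinone to complex III, then by cytochrome c to complex IV, and complex V makes ATP from the proton gradient that complexes I, III and IV build. Mitochondrial DNA encodes a few hydrophobic core subunits of complexes I, III, IV and V, transcribed as long polycistronic RNAs and cut into single messages. Complex II and all other subunits come from nuclear genes, are made in the cytosol and imported, so an assembled complex needs both genomes. Dividing blood progenitors are known to draw on it more than quiescent stem cells do.

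Mitochondrially encoded mRNA was lower in ILCpro_WT than in both other libraries, whereas the nuclear members took nearly the same share in all 3. The 13 mitochondrial mRNAs held 48482 UMIs or 1.18% of all UMIs in ALP, 47055 or 0.772% in ILCpro_WT and 48385 or 1.10% in ILCpro_KO. ILCpro_KO was thus 1.43-fold above ILCpro_WT (interval 1.41 to 1.45), ALP was 1.53-fold above it (1.51 to 1.55), and ILCpro_KO stood at 0.937 of ALP (0.925 to 0.949). The nuclear members held 2.45%, 2.48% and 2.55% of UMIs in ALP, ILCpro_WT and ILCpro_KO, which gave ratios of 1.03 (ILCpro_KO over ILCpro_WT), 1.02 (ILCpro_WT over ALP) and 1.04 (ILCpro_KO over ALP). Within a library, and so free of the total that scales CPM, there were 0.482 mitochondrial UMIs per nuclear member UMI in ALP, 0.311 in ILCpro_WT and 0.433 in ILCpro_KO. Any pair of these comparisons shares a library, so they are not independent of each other.

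The difference was not carried by a few cells with high values, though ALP cells overlapped ILCpro_WT more than ILCpro_KO cells did. The median cell gave 1.10% of its UMIs to mitochondrial mRNA in ALP (quartiles 0.763% and 1.51%), 0.766% in ILCpro_WT (0.632% and 0.923%) and 1.08% in ILCpro_KO (0.910% and 1.32%), so the upper quartile of ILCpro_WT lay just above the lower quartile of ILCpro_KO. The lower quartile of ALP lay just under the ILCpro_WT median. Thinned to 1000 UMIs per cell, which left out 4 ILCpro_WT cells, the medians were 11, 8 and 11 mitochondrial UMIs and 23, 23 and 24 nuclear member UMIs. Only 3 ALP, 0 ILCpro_WT and 1 ILCpro_KO cells exceeded 5% mitochondrial UMIs. Among cells with 3000 to 6000 UMIs (408, 705 and 333 cells, with median depths of 4428, 3804 and 4387 UMIs), the mitochondrial share was 1.17% in ALP, 0.772% in ILCpro_WT and 1.2% in ILCpro_KO. There the ILCpro_KO over ILCpro_WT ratio was 1.56 for mitochondrial and 0.898 for nuclear members, so the nuclear ratio changed side. The mitochondrial ILCpro_KO over ALP ratio changed side there too, to 1.03. The part of depth, ribosomal share and stress gene level in the difference over all cells was not tested beyond these values.

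**Figure D1:**
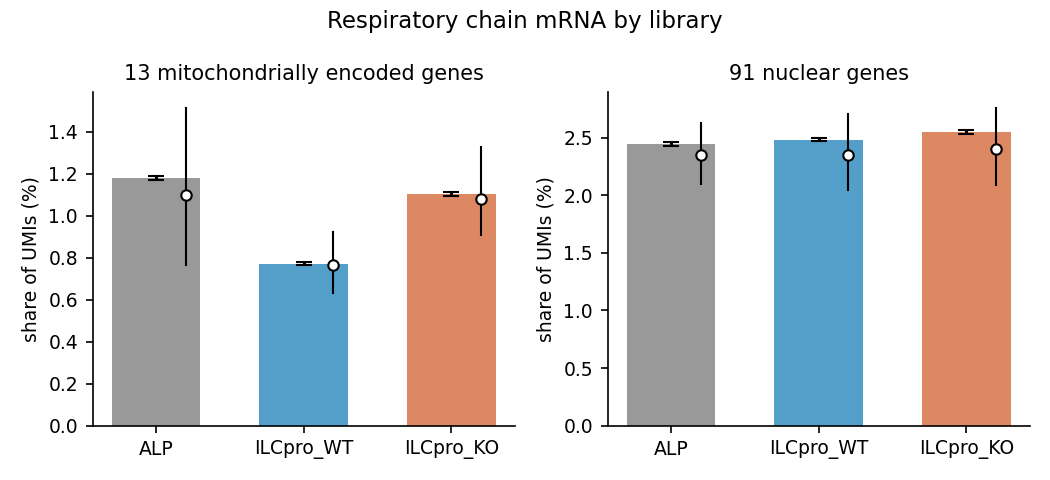
Share of all UMIs (percent, from 0) taken by the 13 mitochondrially encoded genes (left) and the 91 nuclear genes (right) in each library. Bars give the library sum with its exact 95% counting interval, and the open circle and line beside it the median cell and quartiles. The mitochondrial bar is 0.772% in ILCpro_WT against 1.18% and 1.10%, while the nuclear bars lie between 2.45% and 2.55%.

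The 13 mitochondrial genes did not share this difference evenly. Of the 9 with at least 50 CPM in either library, 5 were at least 1.2-fold higher in ILCpro_KO than in ILCpro_WT, where 37.1% of all genes tested were higher by that rule, and 0 were at least 1.2-fold lower, against 12.2% of all genes. From ALP to ILCpro_WT, 7 of 9 were at least 1.2-fold lower beside 35.7% of all genes, and 0 were higher beside 16.9%. Between ILCpro_KO and ALP, 0 of 9 passed the fold in either direction, where 22.7% of all genes were higher and 18.8% lower.

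mt-Cytb, the catalytic cytochrome b of complex III, was at 1146 CPM in ALP, 706 in ILCpro_WT and 1184 in ILCpro_KO, a ratio of 1.68 (1.61 to 1.75) for ILCpro_KO over ILCpro_WT. mt-Co3, a core subunit of cytochrome c oxidase, was at 3276, 1845 and 3036 CPM with a ratio of 1.65 (1.60 to 1.69), and mt-Co1, which holds the oxygen-reducing centre of that enzyme, was at 3889, 2414 and 3466 CPM with a ratio of 1.44. In both genes ILCpro_WT was the low library, and ALP stood somewhat above ILCpro_KO. mt-Nd1, a membrane subunit of complex I near the ubiquinone site, was at 732, 531 and 815 CPM (1.54-fold), and mt-Nd4, a proton-pumping subunit, at 433, 357 and 471 CPM (1.32-fold). mt-Atp6, the proton channel subunit of ATP synthase, was at 1456, 1033 and 1237 CPM, which is just under the 1.2-fold limit between the ILCpro libraries (interval 1.15 to 1.24) but 0.710 for ILCpro_WT over ALP.

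mt-Co2, the subunit that takes electrons from cytochrome c, did not follow its complex. It was at 504 CPM in ALP, 493 in ILCpro_WT and 490 in ILCpro_KO, ratios of 0.993 (0.939 to 1.05) between the ILCpro libraries and 0.980 between ILCpro_WT and ALP. mt-Nd2 was likewise level, at 151, 161 and 147 CPM, with a ratio of 0.913 (0.825 to 1.01). The scarce messages gave wide intervals: mt-Nd5 at 62.2, 49.4 and 54.7 CPM, mt-Nd3 at 42.8, 46.1 and 48.1, and mt-Nd6, the only one of these messages read from the other strand of the mitochondrial DNA, at 36.2, 26.7 and 30.3. Their ILCpro_KO over ILCpro_WT ratios of 1.11, 1.04 and 1.13 had intervals that span 1, as did those of mt-Nd4l (0.956) and mt-Atp8 (1.07), both at 25.3 to 31.5 CPM. Among cells with few cell cycle UMIs the mt-Nd4l ratio was 1.62 (1.04 to 2.49). Those of mt-Nd3, mt-Nd6 and mt-Atp8 fell below 1 there, to 0.905, 0.783 and 0.727, and that of mt-Nd5 was 1.21. The intervals of mt-Nd3, mt-Nd5, mt-Nd6 and mt-Atp8 span 1.

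The 3′ ends of the messages that differed and of those that did not are shown because the libraries count mRNA by its 3′ end. Each line gives the last 30 bases of the GENCODE transcript on chromosome M of GRCm38 (mm10), 5′ to 3′, with the bases of the stop codon in capitals. Of the 13 genes, 10 end in a whole stop codon and 3 (mt-Co3, mt-Nd4 and mt-Cytb) in a single T, which the poly(A) tail completes to a stop. mt-Cytb, mt-Co3, mt-Nd1 and mt-Co1 were lower in ILCpro_WT, and mt-Co2 and mt-Nd2 were level.
mt-Cytb (14145 to 15288): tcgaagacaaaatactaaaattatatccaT
mt-Co3 (8607 to 9390): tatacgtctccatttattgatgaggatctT
mt-Nd1 (2751 to 3707): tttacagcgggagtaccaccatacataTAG
mt-Co1 (5328 to 6872): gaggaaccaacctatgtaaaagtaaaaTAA
mt-Co2 (7013 to 7696): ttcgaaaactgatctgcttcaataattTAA
mt-Nd2 (3914 to 4951): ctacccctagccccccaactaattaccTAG
All 3 genes that end in a single T were at least 1.2-fold higher in ILCpro_KO than in ILCpro_WT. So were mt-Nd1 and mt-Co1, which carry whole stop codons, as do the level mt-Co2 and mt-Nd2. The part of the ending in the ratios was not tested. Neighbours overlap in 4 places: mt-Atp8 and mt-Atp6 by 43 bases, mt-Nd5 and mt-Nd6 by 14 on opposite strands, mt-Nd4l and mt-Nd4 by 7, and mt-Atp6 and mt-Co3 by 1. mt-Nd4l and mt-Nd4, and mt-Atp8 and mt-Atp6, are known to share bicistronic messages, so their UMIs cannot be fully told apart. Annotated nuclear copies of mitochondrial DNA hold nearly every 98-base stretch of mt-Co2, mt-Atp6, mt-Co3, mt-Nd3 and mt-Nd4l (97.6% to 99.9%) and 60.8% of those of mt-Nd4, 31.2% of mt-Co1 and 3.40% of mt-Nd2, against 0 for mt-Nd1, mt-Nd5, mt-Nd6, mt-Atp8 and mt-Cytb. The copies are not listed in the count tables, how reads matching both were treated is not given in the sources used here, and their part in the ratios was not tested.

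**Figure D2:**
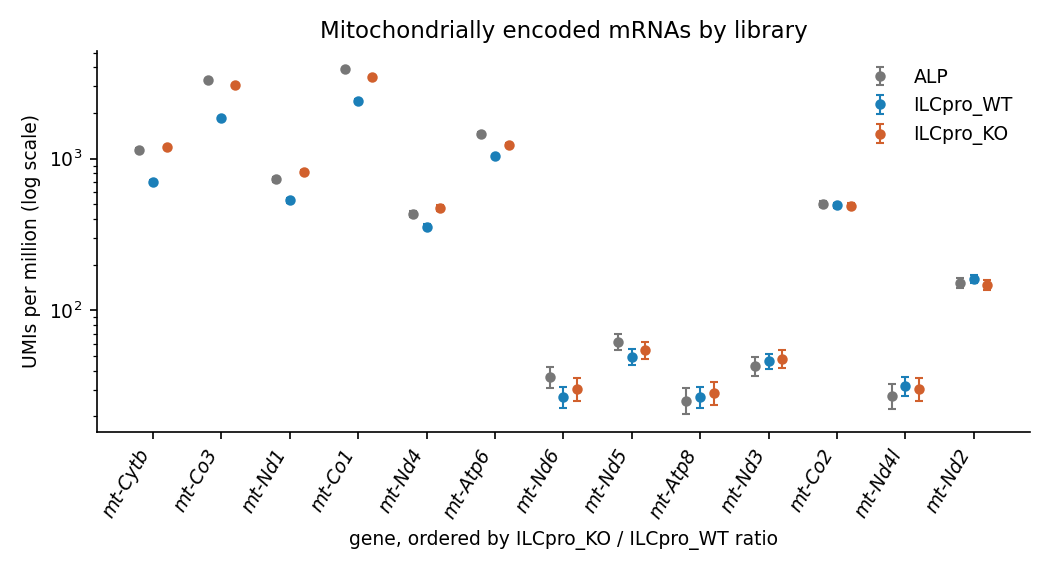
Level of each mitochondrially encoded mRNA (CPM, log axis) in the 3 libraries, with exact 95% counting intervals, ordered from the highest to the lowest ILCpro_KO over ILCpro_WT ratio. From mt-Cytb (1.68-fold) to mt-Atp6 ILCpro_WT is the lowest point, while the 3 points coincide for mt-Co2.

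Among nuclear members, 76 had at least 50 CPM in any library. Between ILCpro_KO and ILCpro_WT, 12 of 76 were at least 1.2-fold higher and 3 at least 1.2-fold lower, both below the shares of all genes (37.1% and 12.2%), and 61 lay within the fold. Their median log2 ratio was 0.07 beside 0.15 for all 3040 genes tested. For ILCpro_WT over ALP, 6 of 75 were higher and 10 lower (all genes 16.9% and 35.7%), with a median of -0.01 beside -0.11. For ILCpro_KO over ALP, 10 of 76 were higher and 4 lower (all genes 22.7% and 18.8%). The split depends on the scaling: with median-of-ratios scaling, which shifts every ILCpro_KO over ILCpro_WT log2 ratio by -0.12, the counts became 2 higher and 6 lower, beside 24.2% and 20.4% of all genes, and those for ILCpro_WT over ALP 16 higher and 5 lower, beside 22.1% and 29.7%. Among cells with 3000 to 6000 UMIs they were 5 higher and 20 lower (all genes 35.5% and 13%), 15 higher and 6 lower (16.8% and 32.7%), and 6 higher and 9 lower (26.5% and 22.5%), in the order of comparisons above. Statements on single nuclear genes below therefore concern their place relative to other members as much as their direction.

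**Figure D3:**
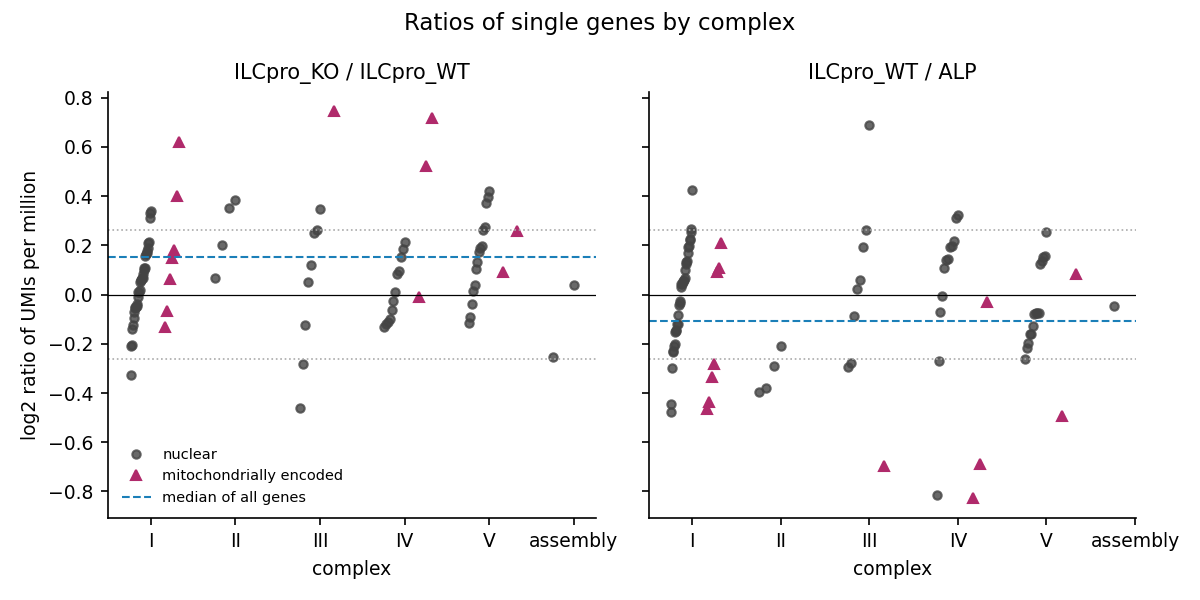
Log2 ratio of CPM for each gene with at least 50 CPM in either library (nuclear, circles) and for all 13 mitochondrially encoded genes (triangles), by complex, for ILCpro_KO over ILCpro_WT (left) and ILCpro_WT over ALP (right). Dotted lines mark 1.2-fold and the dashed line the median of all genes, 0.15 and -0.11. Complex II lies above 0 on the left and below it on the right, and complex III spreads widest among the nuclear groups on the left.

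In complex I, the 36 nuclear genes summed to 7016 CPM in ALP, 7112 in ILCpro_WT and 7248 in ILCpro_KO. The log2 ratio of the complex I sum between the ILCpro libraries, 0.027, was below 0 under 7 of 10 alternatives, among them -0.094 with median-of-ratios scaling and -0.17 among cells with 3000 to 6000 UMIs. Its 7 nuclear core subunits, which carry the flavin and iron-sulfur clusters, were at 919, 785 and 866 CPM, a ratio of 0.854 (0.818 to 0.891) for ILCpro_WT over ALP, while the 29 accessory subunits were at 6097, 6327 and 6383. Ndufs8, an iron-sulfur core subunit, was at 168, 120 and 152 CPM, 0.718 for ILCpro_WT over ALP and 1.26 for ILCpro_KO over ILCpro_WT. Ndufa9, an accessory subunit that binds a nucleotide cofactor, had the same order as Ndufs8, at 83.1, 61.0 and 75.7 CPM. Ndufv3, an accessory subunit of the NADH-oxidising arm, ran the other way at 198, 265 and 211 CPM, 1.34-fold higher in ILCpro_WT than in ALP and 0.797 for ILCpro_KO over ILCpro_WT. Ndufb8, an accessory membrane-arm subunit, was at 263, 223 and 282 CPM (1.27-fold between the ILCpro libraries), and its log2 ratio was -0.15 among cells with 3000 to 6000 UMIs. Its exons overlap those of Gm20538 on the same strand in GENCODE, and how shared reads were counted is not given. Ndufs6 (154, 185 and 187 CPM) was at least 1.2-fold higher in both ILCpro libraries than in ALP, and Ndufb6 (88.7, 103 and 117) and Ndufb10 (175, 192 and 216) in ILCpro_KO alone, whereas Ndufa11 (168, 201 and 194) passed the fold in neither. Ndufa6, Ndufa7 and Ndufs4 were highest in ILCpro_WT, with ILCpro_KO over ILCpro_WT ratios of 0.865, 0.908 and 0.868, of which those of Ndufa6 and Ndufa7 were slightly above 1 among cells with few cell cycle UMIs.

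All 4 subunits of complex II, succinate dehydrogenase, which is also an enzyme of the citric acid cycle and has no mitochondrially encoded part, were lowest in ILCpro_WT. Their sum was 529 CPM in ALP, 418 in ILCpro_WT and 499 in ILCpro_KO, a ratio of 0.789 (0.745 to 0.836) for ILCpro_WT over ALP and 1.19 (1.13 to 1.27) for ILCpro_KO over ILCpro_WT. Sdha, the flavoprotein that oxidises succinate, was at 119, 90.1 and 117 CPM, and Sdhb, the iron-sulfur subunit, at 234, 180 and 207. The membrane anchors Sdhd and Sdhc were at 107, 87.8 and 112 CPM and at 68.5, 59.2 and 62.0 CPM. For ILCpro_KO over ILCpro_WT only the ratios of Sdha (1.30), Sdhd (1.28) and Sdhb (1.15) had intervals above 1, and that of Sdhc was 1.05 (0.892 to 1.23). Among cells with few cell cycle UMIs, Sdha was level between the ILCpro libraries, at 0.979 (0.722 to 1.31). Among cells with 3000 to 6000 UMIs the ILCpro_KO over ILCpro_WT log2 ratios of Sdhb and Sdhc were -0.095 and -0.15, and those of Sdhd were -0.051 for ILCpro_KO over ILCpro_WT and 0.026 for ILCpro_WT over ALP.

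Among nuclear genes that reached 50 CPM, those of complex III had the widest spread between the ILCpro libraries. Its 8 nuclear members summed to 2538, 2897 and 2627 CPM, highest in ILCpro_WT, where mt-Cytb of the same complex was lowest. Uqcrh, the hinge protein that contacts cytochrome c1 (chr4:116066965-116075071), was at 734, 882 and 641 CPM, and its ILCpro_KO over ILCpro_WT ratio of 0.727 (0.694 to 0.761) was the lowest of the 76. Uqcrq, a small membrane subunit (chr11:53427922-53430831), was at 326, 526 and 433 CPM, and its ratio of 1.61 (1.51 to 1.72) for ILCpro_WT over ALP was the highest. Uqcr10, another small subunit, was also highest in ILCpro_WT, at 448, 512 and 470 CPM. The large core proteins went the other way, Uqcrc1 at 169, 138 and 175 CPM and Uqcrc2 at 123, 102 and 121. The last 500 bases of Uqcrc2 are also annotated, on the opposite strand, in a transcript of Pdzd9, and whether strand was used in counting is not given in the sources used here. Uqcrfs1, the Rieske iron-sulfur protein, was nearly level at 176, 166 and 180 CPM, and Uqcrb was at 88.0, 91.7 and 110. With cells thinned to 1000 UMIs the Uqcrc1 log2 ratio between the ILCpro libraries was -0.14, and among cells with few cell cycle UMIs the Uqcrb one for ILCpro_KO over ALP was -0.33.

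In complex IV, the 19 nuclear genes summed to 7164, 7327 and 7315 CPM, so the enzyme whose 3 mitochondrially encoded genes summed to 7668, 4752 and 6992 CPM was level on its nuclear side. Of its 12 genes with at least 50 CPM, 0 passed 1.2-fold between the ILCpro libraries, where 37.1% of all genes were higher in ILCpro_KO and 12.2% lower. Against ALP, Cox6a1 (297, 369 and 411 CPM) and Cox7b (235, 294 and 296) were higher in both ILCpro libraries, and Cox5a (355, 407 and 462) reached 1.30-fold in ILCpro_KO over ALP. Cox7b changed side among cells with few cell cycle UMIs, with an ILCpro_WT over ALP log2 ratio of -0.090. Ndufa4 (chr6:11900292-11907497), first assigned to complex I and now placed in complex IV, had the lowest nuclear ratio to ALP, at 629 CPM in ALP, 358 in ILCpro_WT and 415 in ILCpro_KO. Its ratios were 0.569 (0.537 to 0.603) for ILCpro_WT and 0.660 (0.622 to 0.701) for ILCpro_KO, so both libraries of the a4b7+ gate were below ALP. Its level varied between clusters, as given below. Cox7a2l, a factor of the supercomplex of complexes III and IV, was at 542, 449 and 415 CPM.

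Complex V was the only complex besides complex II with a nuclear sum at least 1.10-fold higher in ILCpro_KO than in ILCpro_WT, at 6956 CPM in ALP, 6823 in ILCpro_WT and 7533 in ILCpro_KO (ratio 1.10, 1.09 to 1.12). On the log2 scale this was 0.02 with median-of-ratios scaling, and among cells with 3000 to 6000 UMIs it changed side to -0.12. The genes with the largest ratios belong to its catalytic head and peripheral stalk. Atp5f1, the b subunit of the stalk, was at 358, 320 and 429 CPM (1.34-fold between the ILCpro libraries), Atp5a1 and Atp5b, the alpha and beta subunits of the head, at 421, 362 and 477 CPM (1.32-fold) and at 674, 562 and 728 CPM (1.29-fold). The 4 stalk genes together were at 1643, 1503 and 1775 CPM, a ratio of 1.18 (1.15 to 1.22), and the 5 head genes at 1.11. Atp5o, the stalk subunit that caps the head, was 1.21-fold higher, whereas the head subunits Atp5e and Atp5d were at 0.973 and 0.922. The assembly and associated factors summed to 260, 261 and 268 CPM and only Ndufaf2, at 61.2, 59.2 and 49.7 CPM, and Ndufaf4 (43.2, 49.1 and 50.4) reached 50 CPM in any library. The Ndufaf2 log2 ratios were -1.03 for ILCpro_KO over ILCpro_WT and -0.92 for ILCpro_KO over ALP among cells with 3000 to 6000 UMIs, and the latter was 0.18 with cells thinned.

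Subunit isoforms shifted in composition. Atp5g1, Atp5g2 and Atp5g3 encode the same mature c subunit of the ATP synthase rotor with different import sequences. Atp5g1 made up 32.4% of their UMIs in ALP (31.2% to 33.6%), 37.5% in ILCpro_WT and 39.3% in ILCpro_KO, and Atp5g2 52.8%, 47.9% and 44.6%. By level, the Atp5g1 log2 ratio for ILCpro_KO over ALP was -0.15 among cells with 3000 to 6000 UMIs, against a ratio of 1.27 over all cells. Cox7a2l made up 56.2% of the Cox7a UMIs in ALP against 47.6% and 48.0%, and Cox7a2 the larger share in the ILCpro libraries. Cox6b2, known from testis, held 7.26%, 6.76% and 6.08% of the Cox6b UMIs. These shares are of UMIs and are not scaled by length.

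Cox4i2, the isoform of subunit 4 tied to oxygen sensing in lung (chr2:152754173-152765037), was scarce but uneven, with 2 UMIs in ALP, 13 in ILCpro_WT and 48 in ILCpro_KO, or 0.486, 2.13 and 10.9 CPM. The ILCpro_KO over ILCpro_WT ratio was 5.13 (2.74 to 10.3). In ILCpro_KO, 24 of the UMIs came from 13 of 170 cells of a conventional dendritic cell-like cluster and 11 from 8 of 155 cells of cluster 6, which shares dendritic cell markers. Cox7a1, the heart and skeletal muscle isoform, had 7, 33 and 10 UMIs, of which 17 in ILCpro_WT came from cluster 0. Both genes lie far under 50 CPM, and the ALP count of Cox4i2 is under the 3 UMIs taken as the detection floor.

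All kept cells were clustered together, and 4 clusters held at least 50 cells of both ILCpro libraries. Left out of the clustering were the members, the markers, sex-linked genes, and those of ribosomes and mitochondrial DNA. The 40 S phase and 53 G2/M genes of the cell cycle lists were left out as well. Cell cycle genes outside those lists stayed in, such as the histone genes and Prc1 among the leading genes of cluster 7. Clusters 0, 3 and 8 held 29.5%, 24.2% and 4.92% of ILCpro_WT cells but 3.21%, 2.37% and 0.140% of ILCpro_KO cells, and cluster 4 held 5.47% and 23.7%. The part of this makeup in the library ratios was not tested beyond the ratios within clusters. Cluster 4 was named conventional dendritic cell-like because 7 of the 12 markers of that type were at least 2-fold above the other cells. Clec9a was not among the 7, and the identity of these cells was not tested further. Clusters 1, 6 and 7 were given no name and are led by Nfil3 and Cpa3, by Bhlhe41 and Cd7, and by histone genes. Mitochondrial mRNA was higher in ILCpro_KO in each: 1.13% against 0.815% in cluster 1, 1.09% against 0.774% in cluster 4, 1.19% against 0.786% in cluster 6 and 0.954% against 0.711% in cluster 7. These are ratios of 1.39, 1.40, 1.51 and 1.34, while the nuclear ratios were 0.964, 0.982, 0.962 and 0.970. Median depth in these clusters was 2470 to 5847.5 UMIs in ILCpro_WT and 4052 to 9543 in ILCpro_KO. mt-Cytb (1.57 to 1.83), mt-Co3 (1.52 to 1.74) and mt-Co1 (1.36 to 1.49) were higher in all 4, and mt-Co2 was at 0.890, 1.19, 1.64 and 0.677, with intervals that span 1 in clusters 1 and 4. The 7 ILCpro_WT clusters with at least 50 cells lay between 0.711% and 0.815%, below every ILCpro_KO cluster (0.954% to 1.19%) and both ALP clusters (1.07% and 1.26%).

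Nuclear members varied more between clusters than between libraries. They held 2.16% of UMIs in cluster 0 of ILCpro_WT, where all 10 innate lymphoid progenitor markers are at least 2-fold above the other cells, 3.21% in cluster 8 of ILCpro_WT, led by Stab2, Klrd1 and Icos, and 3.10% in the neutrophil-monocyte-like cluster 9 of ILCpro_KO. Cluster 9 made up 8.24% of ILCpro_KO cells and 0.492% of ILCpro_WT cells, and without it and the other clusters named for other lineages the nuclear ILCpro_KO over ILCpro_WT log2 ratio was -0.01 in place of 0.04. Uqcrq differed between clusters. It was at 1079 CPM in cluster 8 and 739 in cluster 0 of ILCpro_WT but at 333 to 401 in clusters 1, 4 and 6, and within those its ILCpro_KO over ILCpro_WT ratios were close to 1 in clusters 1 and 6 (0.974 in cluster 6) and 1.2 in cluster 4. Ndufa4 was at 579 CPM in cluster 8 of ILCpro_WT and 526 in cluster 9 of ILCpro_KO. It was at 300 to 410 in the other ILCpro clusters with at least 50 cells, and at 567 and 701 in the ALP clusters. The Uqcrh ratios were 0.838, 0.703, 0.892 and 0.691 in clusters 1, 4, 6 and 7, and the interval in cluster 6 (0.757 to 1.05) spans 1. Sdha was at 1.40, 1.28, 1.46 and 1.46 in the same clusters, with intervals that span 1 in clusters 4 and 6, and Atp5f1 at 1.29, 1.55, 1.18 and 1.39, with one that spans 1 in cluster 6.

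**Figure D4:**
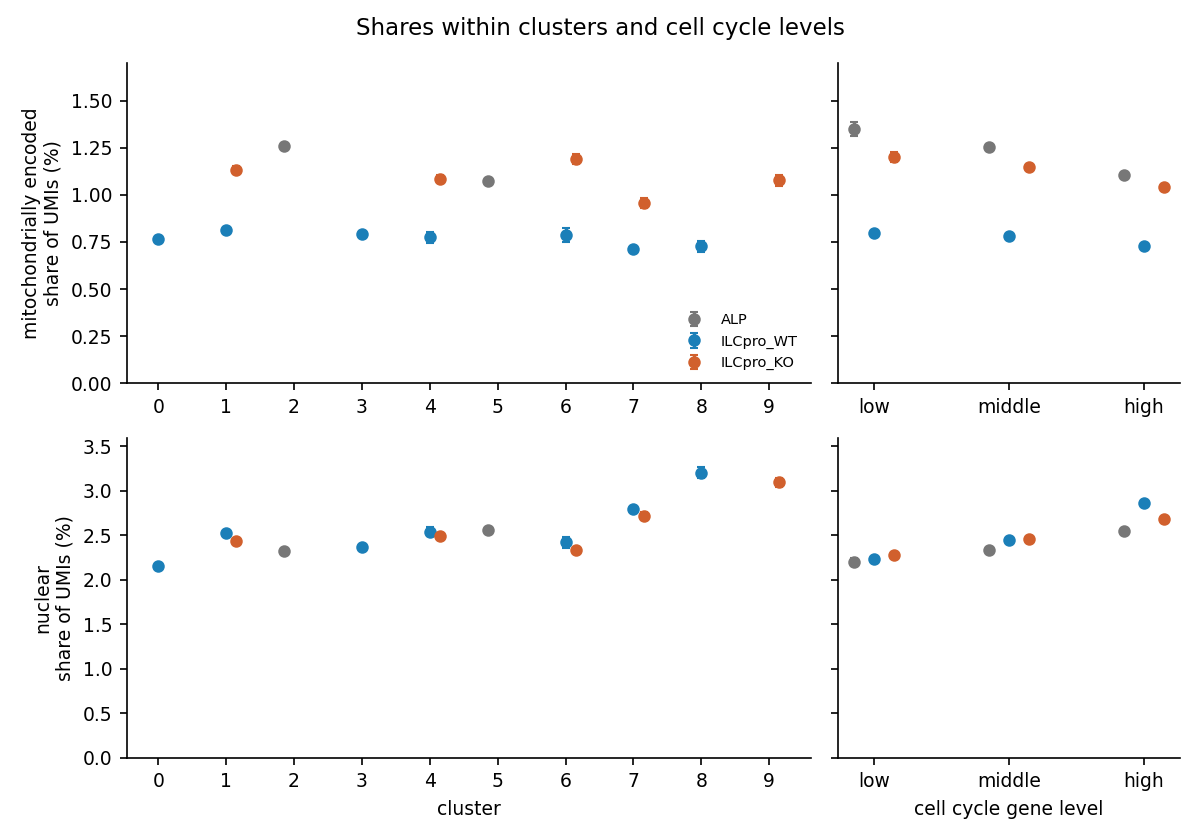
Share of UMIs (percent, from 0) taken by mitochondrially encoded (top) and nuclear members (bottom) in each cluster with at least 50 cells of a library (left) and at each cell cycle gene level (right), with exact 95% counting intervals. In the top row every ILCpro_WT point lies under every ILCpro_KO and ALP point, and in the bottom row the shares climb from the low to the high cell cycle level in all 3 libraries.

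Cells were also grouped by the number of S and G2/M gene UMIs after thinning to 1000 UMIs: 0 to 2 (low), 3 to 9 (middle) and 10 or more (high), which is a range of a score and not a cell type. The high level held 44.1% of ALP, 18.6% of ILCpro_WT and 37.3% of ILCpro_KO cells. Nuclear members took a larger share with the level, from 2.20% to 2.55% in ALP, 2.23% to 2.87% in ILCpro_WT and 2.28% to 2.69% in ILCpro_KO. The mitochondrial sum ran the other way, from 1.35% to 1.11%, 0.795% to 0.726% and 1.2% to 1.04%. Median depth went up from low to high as well, from 2982 to 6176 UMIs in ALP, 2485 to 4401.5 in ILCpro_WT and 3902 to 7428 in ILCpro_KO. Across cells, Spearman's rho of the nuclear share with the cell's UMIs was 0.36, 0.36 and 0.43. That of the mitochondrial share was 0.014, -0.17 and -0.25, and the part of depth in these shares was not tested. From low to high, 40 of 78 nuclear members were at least 1.2-fold higher in ALP, 53 of 76 in ILCpro_WT and 42 of 78 in ILCpro_KO, beside 33.1%, 41.3% and 34.8% of all genes. In the same order, 6, 4 and 5 were at least 1.2-fold lower, beside 1019 of 3346, 726 of 3045 and 969 of 3348 genes of all kinds. Uqcrh was among the exceptions, at 994 CPM in low and 654 in high cells of ALP, 1015 and 712 in ILCpro_WT, and 757 and 572 in ILCpro_KO. Its ILCpro_WT over ALP ratio was 1.02 (0.918 to 1.14) at the low, 1.10 at the middle and 1.09 at the high level. High cells held Cox7a2l at 0.666, 0.628 and 0.667 of its low-level value, and Uqcrc2 at 0.747, 0.745 and 0.755. mt-Co1 went down with the level too, at 0.689, 0.780 and 0.764 of its low-level value, but mt-Nd1 was at 1.14, 1.27 and 1.09 of its own. Of the mitochondrial genes with at least 50 CPM at either level, 2 of 9 in ALP, 1 of 9 in ILCpro_WT and 2 of 10 in ILCpro_KO were at least 1.2-fold lower in high cells, and 0, 1 and 0 were higher. The values for all genes in both directions are those given above beside the nuclear members. At each level ILCpro_KO stood above ILCpro_WT in mitochondrial mRNA, by 1.51, 1.47 and 1.44, and ILCpro_WT stood below ALP, at 0.589, 0.625 and 0.656. The nuclear ILCpro_KO over ILCpro_WT ratios were 1.02, 1.01 and 0.938.

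Other genes of mitochondrial metabolism were read from lists by role. Of 12 citric acid cycle and pyruvate entry genes with at least 50 CPM, 8 were at least 1.2-fold higher in ILCpro_KO than in ILCpro_WT and 0 lower, where 37.1% of all genes were higher and 12.2% lower (median log2 ratio 0.33, all genes 0.15), among them Cs, citrate synthase, at 37.4, 30.7 and 57.3 CPM, and Idh3a, a subunit of isocitrate dehydrogenase, at 49.8, 49.1 and 77.3. Of 10 glycolysis genes, 8 were higher and 0 lower, among them Pgam1, phosphoglycerate mutase, at 179, 154 and 311 CPM. Of 58 mitochondrial ribosomal protein genes 10 were higher and 1 lower, with a median of 0.09. Genes that act on mitochondrial DNA and its transcription were mostly under the minimum: of 3 measured, 0 were higher and 1 lower, and Tfam, which packages mitochondrial DNA and starts its transcription, was at 76.5, 60.9 and 69.3 CPM, a ratio of 1.14 (0.976 to 1.33). Cycs, cytochrome c, which links complexes III and IV, was at 228, 193 and 309 CPM, and Cyc1 at 156, 134 and 174. Of 3 mitochondrial RNA stability and processing genes, 0 were higher and 1 lower: Hsd17b10, a subunit of mitochondrial RNase P, was at 93.8, 134 and 83.7 CPM, highest in ILCpro_WT. Of 14 electron carrier and complex assembly genes 2 were higher and 3 lower, of 3 regulators of mitochondrial biogenesis 2 and 0, of 8 inner membrane carriers and porins 4 and 0, and of 9 peroxide and superoxide defence genes 3 and 1. Of the lists that follow cell state, 28 of 29 S phase, 29 of 31 G2/M and 4 of 6 immediate early and stress genes were higher in ILCpro_KO and 0 lower, and their part in the member ratios was not tested beyond the cell cycle levels above.

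Transcript length was set beside the ratios of the nuclear members. It is the length of the longest transcript tagged as principal in GENCODE, or of the longest coding one where none is tagged. The message counted in these cells may be a shorter one. Across the 75 genes tested for ILCpro_WT over ALP, Spearman's rho of GENCODE transcript length with the log2 ratio was -0.47, against -0.06 over 3000 genes of all kinds. For ILCpro_KO over ILCpro_WT it was 0.30 across 76 members and 0.01 across 2978 genes, and for ILCpro_KO over ALP -0.21 across 76 members and -0.06 across 3060 genes. The genes of a comparison share their libraries, so these are descriptions. For ILCpro_WT over ALP the genes of all kinds spanned 311 to 26901 bases, a wider range than that of the members. The 25 shortest members (371 to 680 bases) had a median log2 ratio of 0.14 for ILCpro_WT over ALP and the 25 longest (1142 to 4715 bases) one of -0.16. Uqcrq and Ndufv3 stood outside this order, being long by this measure and high in ILCpro_WT, and Ndufa4 was short and low.

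**Figure D5:**
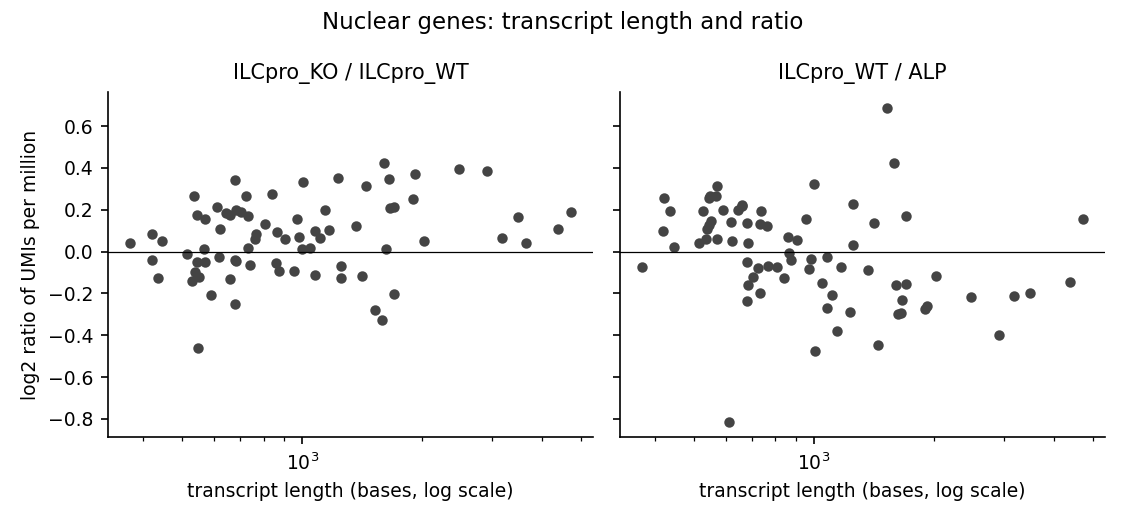
Log2 ratio of CPM against GENCODE transcript length (bases, log axis) for each nuclear member with at least 50 CPM in either library, for ILCpro_KO over ILCpro_WT (left) and ILCpro_WT over ALP (right). On the right, short transcripts lie mostly above 0 and long ones below (rho -0.47), with Uqcrq highest and Ndufa4 lowest.

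RefSeq promoter windows (GRCm38.p6, 250 bases before to 50 after the start) were matched for 76 of the 91 nuclear members. An exact NRF1 core (GCATGCGC, either strand), the site of a known activator of respiratory genes, was found in 12 of them or 15.8%, against 3.05% of 27025 windows of all genes and 7.67% of 2609 windows of genes with at least 50 CPM in these libraries. The YY1 motif AAGATGGC was found in 11 or 14.5% (3.19% and 7.13%), starting no more than 30 bases before the start site, or after it, in 10 of the 11. The ETS and GABP motif CCGGAAGT was found in 5 or 6.58% (4.31% and 11.5%). Any of the 3 was found in 27 or 35.5% (9.91% and 24.2%). Each motif was searched on its own, and the Uqcr11 window held both the NRF1 core and the ETS and GABP motif. A match is not a bound site, and a window without a match says only that these letters are absent from it.

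Parts of 3 windows are shown, 100 bases before to 30 after the start and read 5′ to 3′ on the gene's strand, 1 for each motif. In capitals is the matched motif: YY1 in Atp5f1, the NRF1 core in Sdhb, and the ETS and GABP motif in Uqcrh. Among nuclear genes that reached 50 CPM, Atp5f1 had the highest and Uqcrh the lowest ILCpro_KO over ILCpro_WT ratio. Sdhb was low in ILCpro_WT.
Atp5f1 (chr3:105959234-105959363, minus strand): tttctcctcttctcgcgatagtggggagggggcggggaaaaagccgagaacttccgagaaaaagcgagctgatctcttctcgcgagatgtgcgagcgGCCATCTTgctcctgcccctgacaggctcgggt
Sdhb (chr4:140961171-140961300, plus strand): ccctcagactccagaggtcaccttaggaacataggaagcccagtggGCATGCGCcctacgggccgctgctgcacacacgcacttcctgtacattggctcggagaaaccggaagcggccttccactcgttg
Uqcrh (chr4:116075041-116075170, minus strand): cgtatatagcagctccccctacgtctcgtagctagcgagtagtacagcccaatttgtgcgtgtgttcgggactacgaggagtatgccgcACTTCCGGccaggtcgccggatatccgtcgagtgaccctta
No motif class was compared between libraries.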

How the data were processed

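Per the labels' protocols, each library was made from sorted bone marrow cells with 10x Chromium v2 chemistry and sequenced on a NextSeq; per the submitters' processing notes, Cell Ranger 2.0.1 was used with STAR 2.5.1b, bcl2fastq 2.17 and mm10, and no settings are given. The deposited values are UMI counts per gene and barcode, with no normalization by the authors. Cells with at least 500 genes and at most 10% mitochondrial UMIs were kept, which removed 2 ALP, 5 ILCpro_WT and 0 ILCpro_KO barcodes, and UMIs were summed per library and divided by the library total (CPM). Doublets were kept in the main values. Ratios of CPM have exact conditional binomial intervals, sums exact Poisson intervals and shares Clopper-Pearson intervals; with 1 library per group no test was run. A gene counts as higher or lower at 1.2-fold or more among genes with at least 50 CPM in either library. Cells were clustered with scanpy 1.11.5 and leidenalg 0.10.2 (2000 variable genes, 30 components, 15 neighbours, leiden resolution 1.0). Named genes are the 13 mitochondrial genes, Sdha to Sdhd, the 8 highest and 8 lowest nuclear ratios per comparison, the isoform groups, members under the minimum and up to 4 genes per other list; Cyc1, Uqcr10 and a few further subunits were added after their values were seen. The values of 1 further member, which stays in the sums and counts, are not reported here. Lengths and gene positions come from GENCODE vM21 (GRCm38). The search for shared stretches of 98 bases covered whole mitochondrial transcripts and the last 500 bases of nuclear ones. The code for ratios and intervals was tested on simulated data. The members and lists were chosen with earlier results of these data known. Alternatives changed the cell filter, doublets, clusters, cell cycle level, denominator, thinning, minimum, pseudocount and fold.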

Additional observations from a re-analysis of the deposited data

How the results depend on the processing

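With 1 library per group no replicate was left out, and counting intervals do not cover differences between animals, sorts or library preparations. No paired analysis was possible because each group has 1 library. Low counts limit mt-Nd6, mt-Atp8, mt-Nd4l and the members under 50 CPM. Cells with 3000 to 6000 UMIs, and leaving out cluster 10, were chosen after seeing the data. The mitochondrial sums kept their direction in all 10 alternatives for ILCpro_KO over ILCpro_WT and ILCpro_WT over ALP. Causes of the shifts below were not tested.

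Summed mitochondrial log2 ratios (0.52, -0.61 and -0.09 for ILCpro_KO over ILCpro_WT, ILCpro_WT over ALP and ILCpro_KO over ALP) were 0.59, -0.76 and -0.17 in low cell cycle cells, 0.41, -0.55 and -0.14 with a total without ribosomal and mitochondrial genes, and 0.39, -0.54 and -0.14 with median-of-ratios scaling. With 3000 to 6000 UMIs the first and last were 0.64 and 0.038, and with thinned cells the last 2 were -0.56 and -0.060. Nuclear sums (0.04, 0.02 and 0.06) were -0.15, 0.11 and -0.047 with 3000 to 6000 UMIs, -0.069, 0.084 and 0.015 without ribosomal and mitochondrial genes, and -0.084, 0.095 and 0.011 with median-of-ratios scaling. Under the stricter cell filter the first 2 were 0.0076 and 0.050. Without other-lineage clusters the first and last were -0.0068 and 0.012, and without cluster 10 as well -0.0036 and 0.015.

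Nuclear members higher and lower (12 and 3, 6 and 10, 10 and 4) were 5 and 20, 15 and 6, 6 and 9 with 3000 to 6000 UMIs. They were 4 and 7, then 11 and 6, without ribosomal and mitochondrial genes (all genes 25.1% and 19.9%, then 21.6% and 31.0%). With median-of-ratios scaling they were 2 and 6, then 16 and 5. Shares of all genes under that scaling and among cells with 3000 to 6000 UMIs are given with the main counts above. At 1.5-fold they were 0 and 0, 1 and 1, 0 and 1 (all genes 12.8% and 4.05%, 6.88% and 16.6%, 7.95% and 7.37%). In low cell cycle cells the last 2 comparisons gave 12 and 19, and 16 and 7 (all genes 22.5% and 41.2%, and 32.1% and 27.5%). Thinned cells gave 10 higher for ILCpro_WT over ALP, beside 20.2% of all genes. Without other-lineage clusters 6, or 5 without cluster 10 too, were lower for ILCpro_KO over ILCpro_WT, beside 11.5% of all genes in each case.

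Mitochondrial per nuclear UMIs (ALP, ILCpro_WT, ILCpro_KO) were 0.615, 0.356 and 0.526 in low cell cycle cells, 0.502, 0.334 and 0.463 thinned, and 0.495, 0.303 and 0.525 with 3000 to 6000 UMIs. The stricter filter gave 0.474 in ALP and 0.299 in ILCpro_WT, and leaving out other-lineage clusters 0.448 in ILCpro_KO, or 0.451 without cluster 10 too. By cluster, nuclear ratios ran from 0.914 to 1.01 at leiden resolution 0.5 and from 0.913 to 0.950 at 1.5, where the lowest mitochondrial ratio was 1.43.

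Of 150 values for complex sums 26 changed sign. Of 910 values for single genes 58 changed sign, 9 of them for genes past 1.2-fold with an interval that leaves out 1: for ILCpro_KO over ILCpro_WT Sdha (-0.031, low cell cycle), Sdhd (-0.051) and Ndufb8 (-0.15, both 3000 to 6000 UMIs) and Uqcrc1 (-0.14, thinned), for ILCpro_WT over ALP Sdhd (0.026, 3000 to 6000 UMIs) and Cox7b (-0.090, low cell cycle), and for ILCpro_KO over ALP Ndufaf2 (0.18, thinned), Uqcrb (-0.33, low cell cycle) and Atp5g1 (-0.15, 3000 to 6000 UMIs).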
